A study of Homo sapiens with 8 samples.

Results

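Genes of telomere maintenance, 10 in all, were followed in H3K4me3 ChIP-seq peak lists from U2OS, a human osteosarcoma cell line that lacks telomerase and functional ATRX and keeps its telomeres by the alternative lengthening pathway (ALT). They were chosen by name: TERT, TERC and DKC1 of telomerase, ATRX, DAXX, H3-3A and H3-3B of the histone H3.3 pathway, and SLX4IP, BLM and RTEL1 of telomere processing. These are 10 of 20034 genes examined (20033 protein-coding genes and TERC). For each one, all peaks within 3 kb on either side of the annotated 5′ end were taken, 53 of the 139749 peaks in the 6 lists. The lists came from 3 WT clones and 3 clones in which ZBTB48, a zinc finger protein that binds telomeric repeats and also promoters, had been knocked out (KO). Every library used here, WT and KO alike, came from cells given 250 U/ml IFNγ for 24 h. No untreated H3K4me3 ChIP-seq library was among them, so that nothing here measures a response to IFNγ. The 2 input libraries, both WT, were not analysed here. The comparison asked whether the mark at these promoters differed between genotypes. Permutation p-values set the difference between genotypes against all other ways of dividing the 6 lists. They cannot tell variation between clones from the difference in kind between lists described below.

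H3K4me3, trimethylation of lysine 4 on histone H3, marks the start sites of genes that are transcribed or ready to be. Telomerase extends chromosome ends with a reverse transcriptase (TERT) that copies a template in an RNA (TERC), and dyskerin (DKC1) binds and stabilises that RNA. In ALT cells, telomeres are instead copied from other telomeric DNA by recombination. ATRX and DAXX form a complex that deposits histone H3.3 at telomeres, and loss of ATRX is common in ALT tumours. BLM and RTEL1 are helicases that unwind recombination intermediates and telomere loops, and SLX4IP binds the SLX4 nuclease scaffold and restrains BLM in ALT cells.

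The lists held between 21712 and 26370 peaks, and they were not alike in kind. WT replicates 1 and 2 had median peak widths of 2297 and 2353 bp and median fold enrichments of 13.4 and 14.0. The other 4 lists, WT replicate 3 among them, had widths of 1275 to 1487 bp and fold enrichments of 4.19 to 4.65. Lengths in bp were therefore read beside the percentile of each promoter's covered length within its own list and beside WT replicate 3 alone against the KO lists. How far this difference between lists shaped a value was not tested. Of 6 mesenchymal and osteoblast markers, RUNX2, COL1A1, SPARC and VIM had a peak in all 6 lists, while TWIST1 and COL1A2 had none in any. Of 7 markers of other lineages, EPCAM alone had a peak, in all 6 lists. ZBTB48 itself had a peak in all 6, with 2771 ± 827 bp covered in WT and 1550 ± 307 bp in KO (SD, n = 3 each, exact permutation p = 0.2), and a peak at its promoter does not test the knockout.

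Of the 10 genes, 9 were covered in at least 1 list, and 8 of these carried a peak in all 6 lists. Of the 14422 promoters covered in at least 1 list, 92.9% did, which is 13399 of the 20034 genes examined. The exceptions were the core parts of telomerase. TERC had no peak in any list and TERT had one in the 3 KO lists and in no WT list, a pattern seen at 7 promoters or 0.0485% of those covered. The number of genes called was thus 8 in each WT list and 9 in each KO list (exact permutation test, two-sided p = 0.1, the smallest that 3 against 3 allows). TERT alone made this difference, so the test restates its calls and does not describe the 10 genes as a set. The map of peaks around the 5′ ends lays out every peak by library.

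**Figure D1:**
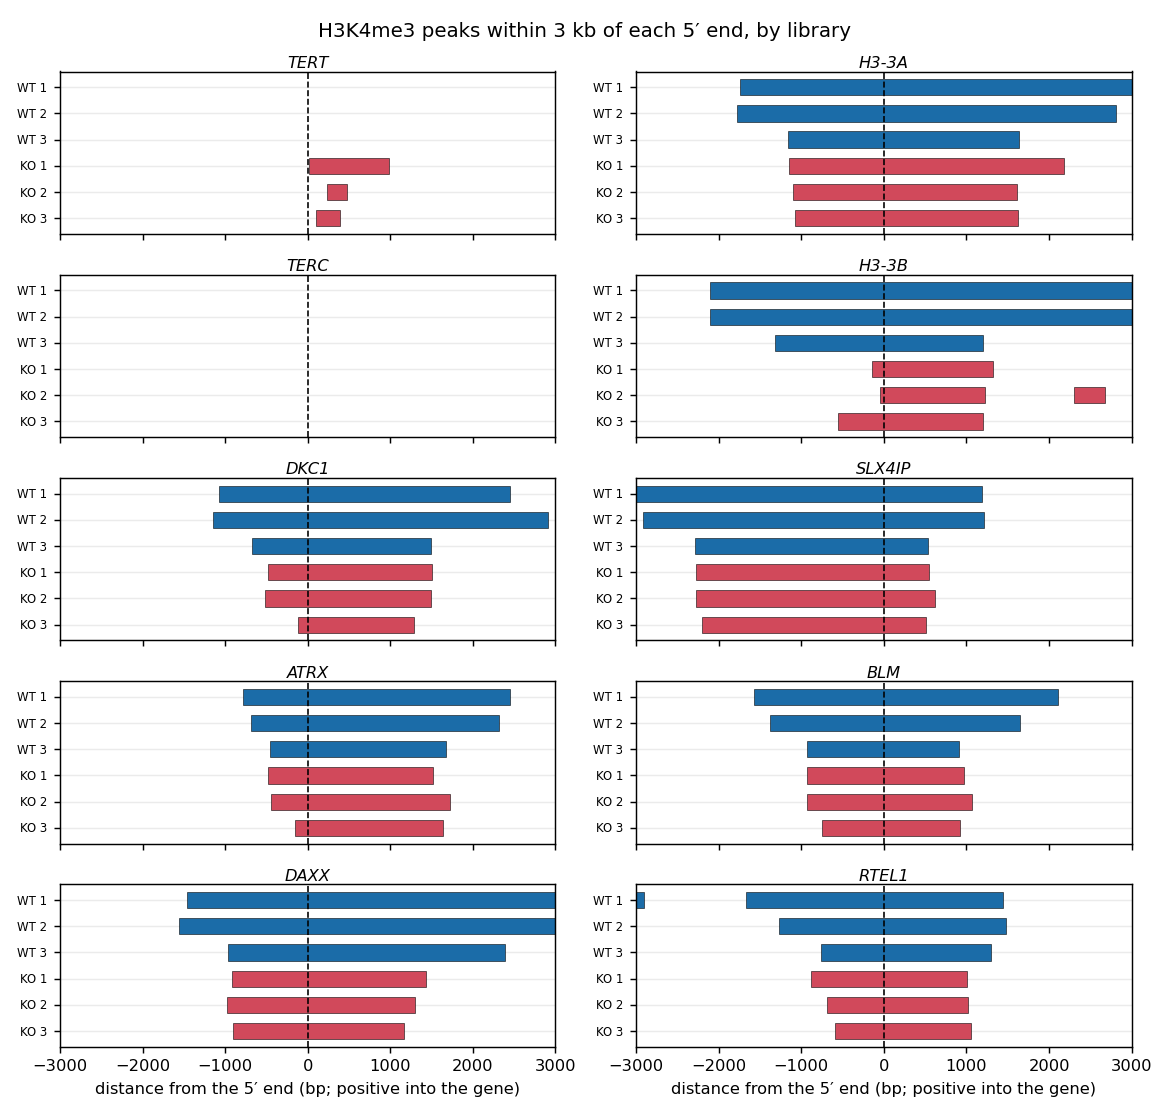
H3K4me3 peaks within 3 kb of the 5′ end of each gene. The x axis is the distance from the 5′ end in bp, positive into the gene, and each row is one library (WT 1 to 3 blue, KO 1 to 3 red), with bars cut at 3 kb. TERT shows bars in the KO rows only and none over the 5′ end, TERC shows none, and at H3-3B the KO bars end short of the WT bars on the upstream side.

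TERT, the catalytic subunit (ENSG00000164362, minus strand of chromosome 5, 5′ end at 1295068, GRCh38), had 0 bp covered in each WT list and 966, 247 and 289 bp in KO replicates 1, 2 and 3. The groups did not overlap, and the KO peaks were small. They ran from 22 to 987, from 235 to 481 and from 99 to 387 bp downstream of the 5′ end, and none lay over the 5′ end itself. Their fold enrichments were 3.17, 3.05 and 2.96. Their −log10 q values, 3.02, 1.92 and 1.97, stood at percentiles 11.3, 3.89 and 8.01 of their lists, near the weakest calls. With −log10 q of at least 3 the peak of KO replicate 1 alone was left, with fold enrichment of at least 4 none was left, and with an equal number of peaks per list that of KO replicate 1 was lost. The mean difference, WT minus KO, was −501 bp (exact permutation p = 0.1, adjusted p = 0.196 by Benjamini-Hochberg over all 14422 promoters). With no WT peak called, this test restates the KO-only calls. In the WT lists the nearest peaks lay 23375, 27605 and 28143 bp upstream. A peak that is not called says nothing of signal below the threshold.

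The stretch that all 3 KO peaks shared was 153 bp long. It lay 235 to 387 bp into TERT, with 63 bp in the coding part of exon 1 and the rest in intron 1. It is printed with the 200 bases before the start site, the core promoter, which no peak touched in any of the 6 lists. In the shared stretch capitals mark each CG, the dinucleotide that DNA methylation acts on, 17 in all at a GC content of 77.8%. In the core promoter, which held 22 CG and 78.0% GC, capitals mark the one match to the GC box (GGGCGG on either strand) that is bound by Sp1-type factors.
TERT, shared stretch, chr5:1294681-1294833, GRCh38, minus strand: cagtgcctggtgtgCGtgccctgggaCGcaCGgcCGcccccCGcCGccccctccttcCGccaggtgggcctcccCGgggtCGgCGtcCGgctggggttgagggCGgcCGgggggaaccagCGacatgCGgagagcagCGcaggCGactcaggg
TERT, core promoter, chr5:1295069-1295268, GRCh38.p14 (RefSeq), minus strand: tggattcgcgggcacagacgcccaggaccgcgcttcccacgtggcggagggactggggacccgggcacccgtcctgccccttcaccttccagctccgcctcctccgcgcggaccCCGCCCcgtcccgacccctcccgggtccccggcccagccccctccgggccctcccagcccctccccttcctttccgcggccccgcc

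TERC, the RNA template (ENSG00000270141, minus strand of chromosome 3, 5′ end at 169765060, non-coding), had 0 bp covered in all 6 lists. The nearest peak lay 6452, 6484 and 6680 bp upstream in WT replicates 1 to 3 and 6688, 6690 and 6757 bp upstream in KO replicates 1 to 3. In every list that peak covered the 5′ end of MYNN, the neighbouring gene, so the peaks of this region stopped short of TERC in both genotypes.

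DKC1, the third telomerase gene (ENSG00000130826, plus strand of chromosome X, 5′ end at 154762864), was covered over 3528, 4065 and 2166 bp in WT and 1992, 2009 and 1413 bp in KO. Every WT value was above every KO value, by 1448 bp on average (exact permutation p = 0.1, adjusted p = 0.196). The lead of WT replicate 3 over the highest KO list was 157 bp, and 19.7% of the 14281 promoters covered in those 4 lists had one at least as large. By percentile the groups overlapped, at 59.5, 78.3 and 64.4 in WT and 56.8, 67.9 and 35.6 in KO (exact permutation p = 0.4). KO replicate 3, the lowest on both scales, had a peak that began 123 bp upstream of the 5′ end against 481 and 513 bp in the other KO lists, and without KO replicate 2 the percentiles no longer overlapped (21.3 points), nor did they within 1 kb (26.7 points). With fold enrichment of at least 4, where WT replicate 3 had 0 bp covered, the lengths overlapped (726 bp). The percentile difference then turned to −23.4 points.

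By covered length, 4 of the 9 covered genes (DKC1, DAXX, H3-3B and RTEL1) had every WT library above every KO library. Across all covered promoters 50.8% did, so this direction was the common one. TERT was the 1 gene with every KO library above every WT library, which 0.111% of promoters showed. It entered the covered promoters through its KO peaks alone, so this separation only restates those calls. The median difference, WT minus KO, over the 9 covered genes was 992 bp beside 965 bp over all covered promoters. Set against WT replicate 3 alone it was 152 bp beside 161 bp. The median of these genes was thus near that of promoters in general on both measures.

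**Figure D2:**
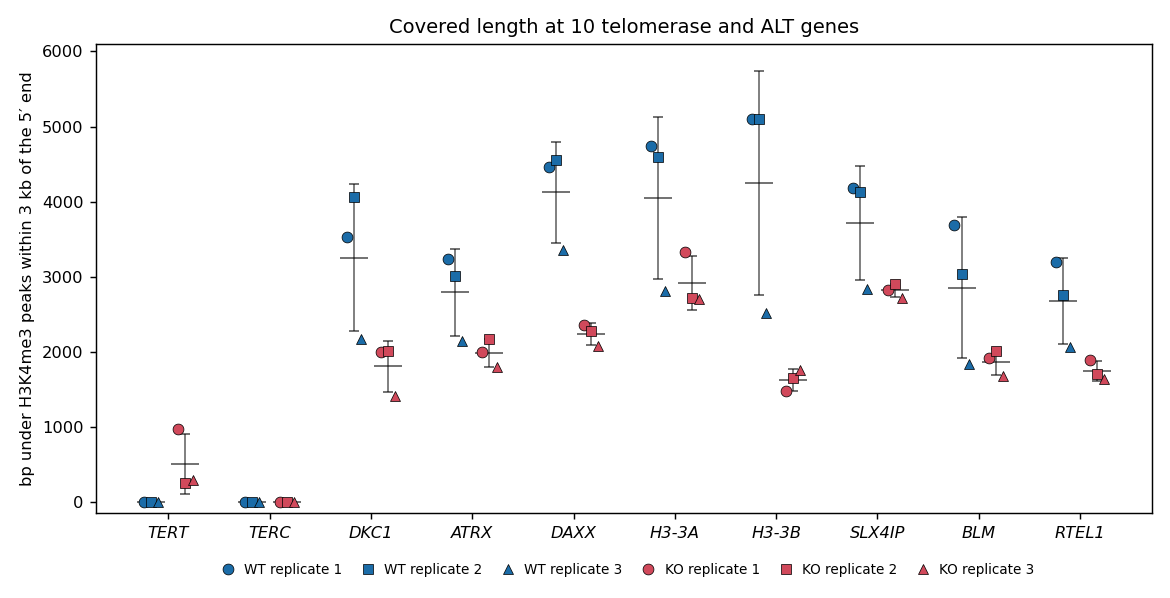
Covered length at the 10 genes. The y axis is the number of bp under H3K4me3 peaks within 3 kb of the 5′ end, points are libraries (blue WT, red KO, shape by replicate), and bars are the mean ± SD of 3 libraries. WT replicate 3 lies below the other WT points at every covered gene with a WT peak, and at DAXX and H3-3B it still lies well above the KO points.

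By percentile, the direction was more even. DAXX and H3-3B (2 of the 9 covered genes) had every WT library above every KO library, a pattern at 6.29% of covered promoters. TERT, H3-3A and SLX4IP (3 of the 9) had every KO library above every WT library, a pattern at 11.9%. At TERT the separation follows from a peak being called in the KO lists alone. Each of these 5 differences had an exact permutation p of 0.1, and an adjusted p of 0.549. No gene of the list passed an adjusted threshold of 0.05 on either scale, which 3 against 3 libraries could not reach.

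**Figure D3:**
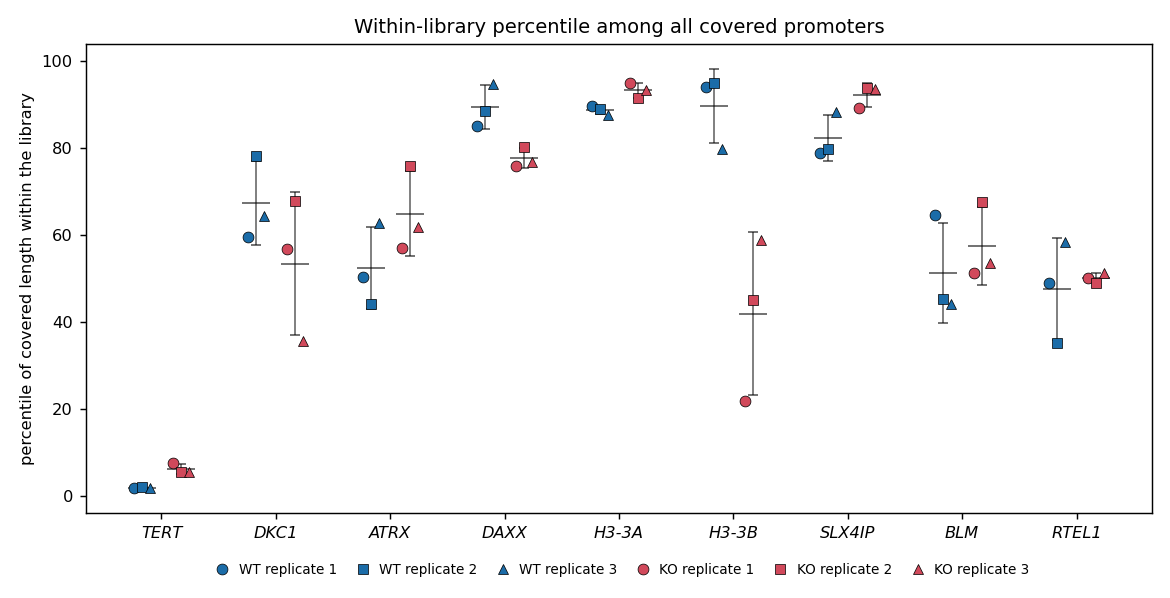
Percentile of covered length within each library for the 9 genes covered in at least 1 list. The y axis is the percentile among 14422 covered promoters of the same library, points are libraries (blue WT, red KO, shape by replicate), and bars are the mean ± SD of 3 libraries. H3-3B stands between 79.9 and 95.0 in WT and between 21.8 and 58.8 in KO.

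H3-3B showed the widest separation. Together with H3-3A it encodes histone H3.3, the variant that is built into chromatin outside of replication, and both genes give the same protein. H3-3B (ENSG00000132475, minus strand of chromosome 17, 5′ end at 75779779) was covered over 5107, 5105 and 2520 bp in WT and 1470, 1648 and 1750 bp in KO. All WT values were higher, by 2621 bp on average (exact permutation p = 0.1, adjusted p = 0.196). WT replicate 3 led the highest KO list by 770 bp, a lead that 2.64% of promoters reached. In percentile it stood at 94.1, 95.0 and 79.9 in WT and at 21.8, 45.1 and 58.8 in KO. That difference, 47.8 percentage points, was the 22nd highest of 14422.

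The H3-3B peak was shorter upstream in KO than in any WT list. It reached 2106, 2104 and 1321 bp upstream of the 5′ end in WT but 148, 42 and 552 bp in KO. Downstream, it ended at 4146 and 3322 bp in WT replicates 1 and 2, at 1198 bp in WT replicate 3, and at 1321, 1229 and 1197 bp in KO. The wide WT lists were thus longer on both sides, and WT replicate 3 on the upstream side only. KO replicate 2 had a second peak of 376 bp, from 2300 to 2675 bp downstream. The peaks were not weak in KO: their −log10 q stood at percentiles 95.2, 89.1 and 96.5 of the KO lists, beside 97.8 in WT replicate 3. The main peak of each KO list covered the 5′ end.

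H3-3A (ENSG00000163041, plus strand of chromosome 1, 5′ end at 226062716) went the other way in rank. It was covered over 4741, 4591 and 2802 bp in WT and 3332, 2712 and 2699 bp in KO, and the groups overlapped through WT replicate 3 (exact permutation p = 0.2, adjusted p = 0.245). In percentile it stood at 89.7, 89.1 and 87.8 in WT and at 95.1, 91.6 and 93.3 in KO, a difference of −4.47 points with no overlap. With any annotated 5′ end the groups overlapped (−3.89 points, exact permutation p = 0.3). WT replicate 3 minus the KO mean was −112 bp, and with fold enrichment of at least 4 the percentile difference turned to 52.0 points. Under that setting WT replicate 3 and every KO list had 0 bp covered. The peak also covered the 5′ end of H3-3A-DT, a divergent non-coding gene that starts 818 bp upstream, in all 6 lists, and the list cannot divide the mark between them.

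The promoters of the H3.3 pair differ in letters, and the 200 bases before each start site are printed because 2 of the 3 KO peaks of H3-3B ended there. All WT peaks and that of KO replicate 3 ran past these bases at H3-3B, while those of KO replicates 1 and 2 stopped within them. At H3-3A all 6 peaks covered them whole. Capitals mark the CCAAT box (CCAAT on either strand), the element bound by NF-Y, with 3 matches at H3-3B and 1 at H3-3A. The bases held 19 CG at 54.5% GC at H3-3B and 29 CG at 78.0% GC at H3-3A.
H3-3B, chr17:75779780-75779979, GRCh38.p14 (RefSeq), minus strand: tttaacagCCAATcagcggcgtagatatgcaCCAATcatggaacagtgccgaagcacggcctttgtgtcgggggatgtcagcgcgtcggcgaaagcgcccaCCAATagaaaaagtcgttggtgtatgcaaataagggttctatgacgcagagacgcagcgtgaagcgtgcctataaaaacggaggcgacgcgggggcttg
H3-3A, chr1:226062516-226062715, GRCh38.p14 (RefSeq), plus strand: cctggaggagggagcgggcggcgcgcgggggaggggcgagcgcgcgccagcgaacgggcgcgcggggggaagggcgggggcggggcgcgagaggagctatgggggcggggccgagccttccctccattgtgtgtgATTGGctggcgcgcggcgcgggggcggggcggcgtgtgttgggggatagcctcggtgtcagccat

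RefSeq promoter sequences, 250 bases before to 50 after the start site, matched 7 of the 10 genes; TERC, ATRX and DAXX had none. Of the 7, read at the RefSeq start equal to the GENCODE 5′ end, none held the telomere hexamer TTAGGG on either strand, which 8.84% of 22199 such protein-coding windows did. The CCAAT box was found at H3-3A, H3-3B and BLM and in 34.7% of all windows. The GC box was found at all 7 and in 56.3% of all windows. GC content was lowest at H3-3B and SLX4IP (54.0% each) and highest at TERT (77.3%), around a median of 62.3% over all windows. Matches to the telomere hexamer and the GC box can share letters, and a match is a description of these letters only.

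DAXX, the H3.3 chaperone (ENSG00000204209, minus strand of chromosome 6, 5′ end at 33322959), was the second gene higher in WT on both scales. It was covered over 4465, 4554 and 3349 bp in WT and 2357, 2277 and 2080 bp in KO, a difference of 1885 bp with no overlap (exact permutation p = 0.1, adjusted p = 0.196). Its percentiles were 85.1, 88.5 and 94.9 in WT and 75.9, 80.3 and 76.9 in KO. WT replicate 3 stood highest of all, and its lead of 992 bp over the highest KO list was reached by 1.48% of promoters.

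At DAXX, WT replicate 3 differed from the KO lists on the downstream side, where at H3-3B it had differed upstream. Upstream, the DAXX peak reached 1464, 1553 and 962 bp in WT and 922, 981 and 907 bp in KO, so WT replicates 1 and 2 were longer there as well. Downstream it reached 2386 bp in WT replicate 3 and 1434, 1295 and 1172 bp in KO. In WT replicates 1 and 2 a single peak ran on to 11853 and 11499 bp and also covered the 5′ ends of ZBTB22 and TAPBP, 5215 and 8881 bp downstream. Within 1 kb of the 5′ end the lists differed by 50.7 bp with overlap (exact permutation p = 0.2), and the percentile difference turned to −10.8 points. That window was nearly full in every list, at 2001, 2001 and 1963 bp in WT and 1923, 1982 and 1908 bp in KO. In WT replicates 1 and 2 it was filled, so that DAXX tied there with every other filled promoter.

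ATRX, the chromatin remodeller that partners DAXX (ENSG00000085224, minus strand of chromosome X, 5′ end at 77786216), kept a peak over its 5′ end in all 6 lists. It was covered over 3234, 3007 and 2138 bp in WT and 1996, 2167 and 1795 bp in KO, with WT replicate 3 below KO replicate 2 (difference 807 bp, exact permutation p = 0.2, adjusted p = 0.245). Without WT replicate 3 or without KO replicate 2 the groups did not overlap (1135 and 898 bp). By percentile it ranged from 44.1 to 62.8 in WT and from 57.1 to 75.8 in KO, with overlap (difference −12.5 points, exact permutation p = 0.3). A peak at the promoter gives no information on the protein, which is not functional in this line.

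SLX4IP (ENSG00000149346, plus strand of chromosome 20, 5′ end at 10435305) was covered over 4184, 4127 and 2832 bp in WT and 2828, 2898 and 2721 bp in KO. WT replicate 3 fell among the KO lists (difference 899 bp, exact permutation p = 0.2, adjusted p = 0.245). In percentile it stood at 78.8, 79.7 and 88.4 in WT and 89.2, 94.0 and 93.6 in KO, a difference of −9.91 points without overlap, with WT replicate 3 the nearest to KO. The peak lay mostly upstream, over the divergent MKKS gene, which starts 1083 bp away and shared the peak in all 6 lists. In WT replicate 3 it reached 2293 bp upstream and 538 bp downstream, and in KO 2281, 2277 and 2208 bp upstream and 546, 620 and 512 bp downstream. Within 1 kb, where the peaks of WT replicates 1 and 2 filled the window (2001 bp), the percentile difference turned to 7.05 points. With fold enrichment of at least 4 it turned to 45.0 points, with 0 bp covered in WT replicate 3 and every KO list.

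Neither helicase gene separated the genotypes by percentile. BLM (ENSG00000197299, plus strand of chromosome 15, 5′ end at 90717346) was covered over 3691, 3032 and 1842 bp in WT and 1909, 2006 and 1673 bp in KO (difference 992 bp, exact permutation p = 0.3, adjusted p = 0.335). Its upstream border was the same base, 934 bp from the 5′ end, in WT replicate 3 and KO replicates 1 and 2, and the peak was shared with CRTC3-AS1, which starts 205 bp upstream. In percentile it ranged from 44.1 to 64.5 in WT and from 51.3 to 67.7 in KO (exact permutation p = 0.5). WT replicate 3 minus the KO mean was −20.7 bp, so WT replicates 1 and 2 alone stood above the KO lists, and without WT replicate 3 the groups did not overlap (1499 bp).

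RTEL1 (ENSG00000258366, plus strand of chromosome 20, 5′ end at 63658312) was covered over 3194, 2759 and 2065 bp in WT and 1892, 1705 and 1640 bp in KO. The groups did not overlap (difference 927 bp, exact permutation p = 0.1, adjusted p = 0.196), but WT replicate 3 led the highest KO list by 173 bp, a lead that 17.8% of promoters reached. In percentile the KO lists were close together, at 50.2, 49.0 and 51.2, within the WT spread of 48.9, 35.1 and 58.5 (difference −2.65 points, exact permutation p = 0.7). WT replicate 1 had a second peak of 3758 bp, far upstream, that entered the window by its edge. With fold enrichment of at least 4, or within 1 kb (difference 200 bp), the groups overlapped by length. The main peak of each list also covered the 5′ end of RTEL1-TNFRSF6B, a read-through gene annotated 988 bp downstream.

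**Figure D4:**
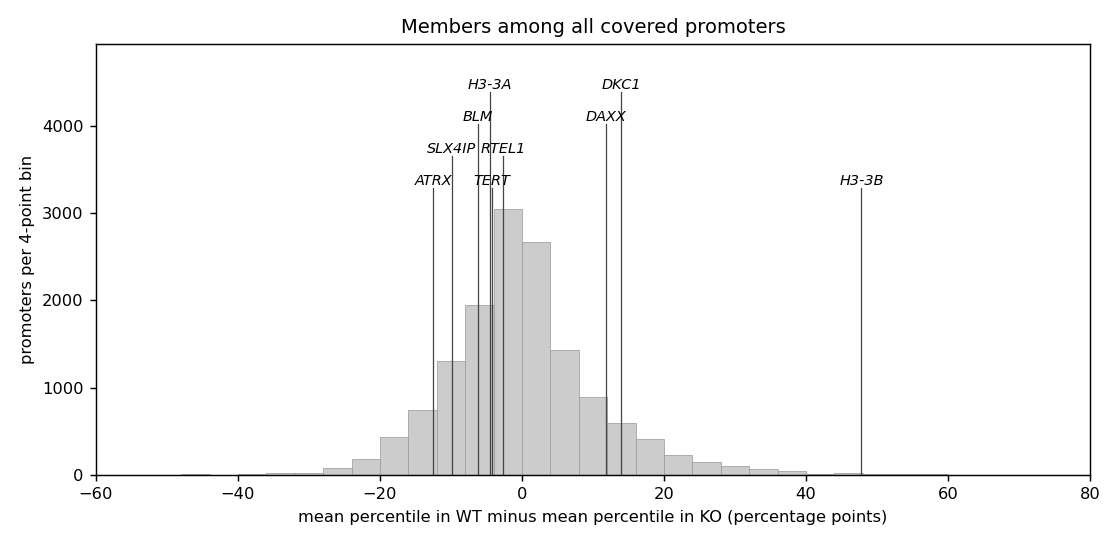
Mean percentile in WT minus mean percentile in KO, in percentage points, for all 14422 covered promoters (grey bars, number of promoters per 4-point bin) and for the 9 covered genes (lines). H3-3B stands at 47.8, the 22nd highest value, and the other genes lie between −12.5 and 14.0.

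The histogram of percentile differences places the genes among all promoters. Over the 9 covered genes the median difference was −4.25 points, beside −0.67 points over all covered promoters. DKC1 (14.0 points) and DAXX (11.8 points) ranked 1304th and 1686th from the top, and ATRX (−12.5 points) ranked 1379th from the bottom. H3-3B apart, the genes lay within the bulk of promoters.

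Of 50 further genes of telomerase and ALT, 49 had a peak in all 6 lists. SLX1A, the SLX4-bound nuclease, had none in any. It has a near-identical copy, SLX1B, and reads mapping to several places had been removed by the authors, so its value is uncertain. By length, 25 of the 49 covered genes had every WT library above every KO library and 0 the reverse, beside 50.8% and 0.111% of all covered promoters. By percentile, 4 were higher in WT and 10 were higher in KO, beside the shares of 6.29% and 11.9% given above.

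ERCC1, which pairs with XPF in a nuclease that cuts branched DNA, had the largest percentile difference of the list. It was covered over 4590, 4885 and 2534 bp in WT and 1822, 1459 and 1578 bp in KO, with percentiles of 80.3 to 93.2 in WT and 32.7 to 47.1 in KO (difference 45.2 points). WT replicate 3 was 712 bp above the highest KO list, a lead of the size seen at H3-3B. UBN1, a subunit of the HIRA complex that deposits H3.3 at active genes, was covered over 5382, 5077 and 3740 bp in WT and 2452, 2466 and 2299 bp in KO (difference 12.4 points), with WT replicate 3 leading by 1274 bp. The other genes higher in WT were RFC1, of the clamp loader (13.4 points), and ZCCHC8, of a nuclear RNA targeting complex (4.39 points).

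The 10 genes higher in KO by percentile were spread over 5 of the 8 groups. FANCD2 (−20.5 points), of the Fanconi anaemia pathway, and FANCM (−2.17 points), a translocase of the same pathway, are partners of the helicases. MRE11 (−6.11 points), a nuclease that trims DNA ends, belongs to recombination. GAR1 (−14.0 points) and WRAP53 (−6.13 points) act in telomerase assembly and trafficking, and SETDB1 (−9.22 points) is a histone H3 lysine 9 methyltransferase. ZNF827 (−13.6 points) and NR2F2 (−5.90 points), a zinc finger protein and an orphan nuclear receptor, have been found at ALT telomeres.

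These ranks moved while the mean length in bp was higher in KO at none of these genes. WT replicate 3 minus the KO mean was nevertheless −443 bp at FANCM and −407 bp at NR2F2. It was positive at the other genes named. FANCD2 was covered over 3036, 2903 and 2157 bp in WT and 2156, 2092 and 1962 bp in KO, so that every WT library was longer, by as little as 1 bp between WT replicate 3 and the highest KO list, while its percentile was higher in every KO list. MRE11 also had every WT library longer, with a margin of 1 bp. In the CST complex (CTC1, STN1 and TEN1) and among the PML body genes, PML and SP100 included, no gene separated the genotypes by percentile. Over all covered promoters 6.29% were higher in WT and 11.9% in KO, and none in groups this small is near those shares.

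**Figure D5:**
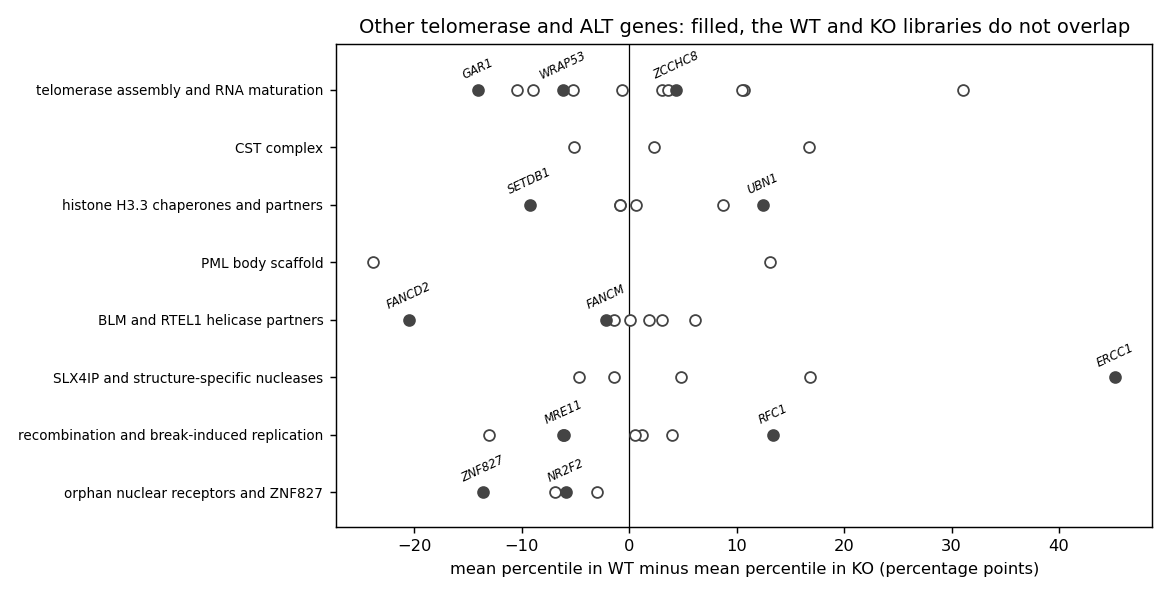
Mean percentile in WT minus mean percentile in KO, in percentage points, for covered genes of 8 groups of telomerase and ALT genes. Each point is a gene, and filled, named points are genes whose WT and KO libraries do not overlap. ERCC1 stands apart at 45.2 points, and FANCD2, at −20.5 points, is the lowest of the filled points.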

How the data were processed

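H3K4me3 ChIP-seq was carried out in 3 WT and 3 ZBTB48 KO clones of U2OS, all with IFNγ. Groups and replicate numbers came from the labels. According to the study's methods and the submitters' processing notes, reads were trimmed (trimmomatic), mapped to GRCh38 (bowtie2 2.3.5.1), stripped of multimapping, unmapped and duplicate reads, and turned into broad peaks library by library (MACS2 2.1.1.2). Whether an input was given to the caller is not given in the sources used here. Each deposited list holds a score, which was not used, a fold enrichment ratio, and −log10 p and −log10 q values. The last 3 are the authors' averages over each peak and were used here within a list only. The lists hold no counts, so depth is unknown and no counting interval was computed.

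Promoters were placed at the 5′ ends of MANE Select, else canonical, transcripts in GENCODE 44 (GRCh38). Covered length summed the bases under peaks up to 3 kb away. Percentiles used mid-ranks among the 14422 promoters covered in at least 1 library. Genotypes were compared by a two-sided exact permutation test over all 20 assignments (smallest p 0.1), adjusted by Benjamini-Hochberg over those promoters, and groups that do not overlap were counted. The genes named were the 10 genes, those of 50 pathway genes that were not called in all 6 lists or did not overlap by percentile, and ZBTB48. The values of 3 pathway genes are not reported here singly, while counts over the list include them. Neighbouring genes were named where a peak covered them. The genes and lists were chosen with earlier results of these data known. The steps were tested on simulated lists and run in Python 3.11.15 with numpy 2.4.6, scipy 1.17.1 and matplotlib 3.10.9. Alternatives were stricter peaks (−log10 q of at least 3, fold enrichment of at least 4), equal numbers of peaks, a 1 kb window, any annotated 5′ end, joined peaks, other overlaps, a replicate block, WT replicate 3 alone, and leaving out each library.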

Additional observations from a re-analysis of the deposited data

How the results depend on the processing

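The mean number of the 10 genes called, WT minus KO, was −1, all of it through TERT. It was −0.33 with −log10 q of at least 3 or with at least 500 bp covered, −0.67 with equal numbers of peaks, 0 with a peak over the 5′ end itself, and 2 with fold enrichment of at least 4. That last setting kept more of the WT replicate 1 and 2 peaks than of the others. Under it 1 gene was longer in every WT library, against 4 (31.7% of all covered promoters), and 0 were longer in every KO library (0.0715%). By percentile it gave 4 and 0 of the 10 genes, against 2 and 3. Of the 50 pathway genes it gave 17 and 0, against 4 and 10. The shares over all covered promoters moved to 18.2% and 4.82%. DAXX, H3-3A and SLX4IP, counted among the 4, then had 0 bp covered in WT replicate 3 and in every KO list. What separated WT replicate 3 from the KO lists there was the rank given to promoters tied at 0 bp. The gene longer in KO, TERT, was also lost with −log10 q of at least 3 and with equal numbers of peaks. That left 0 in both, beside 0.0634% and 0.133% of all covered promoters. Within 1 kb 2 genes were longer in WT (38.7% of all). Leaving out 1 library gave 4 to 8 genes longer in WT, 8 without WT replicate 3, where 90.9% of all covered promoters were longer in WT. Without KO replicate 1 it gave 5 genes beside 80.2% of all. Without any other single library the share was 51.5% to 53.7%. By percentile it gave 3 to 5 of the 10 genes higher in KO. Of the 50, 4 to 12 were higher in WT and 11 to 16 in KO. Each of these counts was highest without WT replicate 3, where the shares over all covered promoters were 19.8% and 27.3%. Without any other single library the shares were 8.95% to 11.5% higher in WT and 15.1% to 21.6% higher in KO. Counts in this paragraph are out of all 10 or all 50 genes, uncovered ones included.

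Direction turned by percentile at DKC1 (−23.4 points), ATRX (0.83), H3-3A (52.0) and SLX4IP (45.0) with fold enrichment of at least 4. Under that setting WT replicate 3 had 0 bp covered at all of them, as did every KO list at H3-3A and SLX4IP. Within 1 kb it turned at DAXX (−10.8) and SLX4IP (7.05). There the peaks of WT replicates 1 and 2 filled the window at both genes (2001 bp). RTEL1 turned with any annotated 5′ end (8.16) and with WT replicate 3 alone (8.40), and ranged from −8.19 to 3.56 without 1 library, 3.56 without WT replicate 2. With WT replicate 3 alone, H3-3A (−112 bp) and BLM (−20.7 bp) turned by length. H3-3B kept its direction and its separation on both scales under each of these settings. The causes were not tested. Replicate numbers did not pair the libraries (correlations of deviations −0.0095, 0.017 and 0.093). With the replicate block the number called still differed by −1 in each pair, again through TERT alone (exact sign-flip p = 0.25, the smallest 3 pairs allow). With no read counts, a weak peak such as those at TERT cannot be weighed against depth.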
